A study of Mus musculus with 27 samples.

Results

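The NFIA Δpro#3 mutant was compared with control in C2C12 cells before the induction of differentiation (day 0). C2C12, a mouse myoblast cell line, fuses into muscle fibers when differentiating, and NFIA is a transcription factor of the nuclear factor I family that promotes brown fat development and represses the muscle gene program. The Δpro#3 mutant is a 3xFLAG-tagged NFIA that lacks the last, proline-rich C-terminal residues (the pro#3 domain) and keeps the DNA-binding domain. It was introduced by retrovirus, so both kinds of cells also carried the endogenous Nfia gene. All 3 control and all 3 Δpro#3 samples of day 0 were taken, which makes 6 of the 27 samples of the series, and the 3 day-0 samples with full-length NFIA served as a reference for the size of the effects. No differentiation cocktail or forskolin had been given to any of these samples. A comparison of days also used the 6 control and Δpro#3 samples of day 7. Those were taken 7 days after adipocyte differentiation had been induced, without forskolin. The deposited values are FPKM (fragments per kilobase, relative to the total of the sample), and the samples held 21909547 to 27230965 fragments in control and Δpro#3 cells and 11323688 to 25630237 with full-length NFIA. The labels number the replicates but do not say that they were separate cultures or infections, so p-values measure only the spread between these samples, which may be technical.

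Skeletal muscle differentiation follows a cascade of basic helix-loop-helix (bHLH) factors. Myf5 and MyoD mark the committed myoblast, myogenin is switched on when the cell leaves the cycle, and both MyoD and myogenin bind E-boxes together with E proteins to activate sarcomere, ion channel and fusion genes. Id proteins and Notch effectors oppose them, and adipogenesis runs instead through C/EBP factors and PPARγ.

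The introduced gene was read first as a check on the labels. Nfia was at 0.879, 7.35 and 0.175 FPKM in the control samples and at 423, 398 and 397 FPKM in the Δpro#3 samples, where introduced and endogenous fragments are counted together. With full-length NFIA it was at 225, 249 and 250 FPKM, below every Δpro#3 sample. That log2 difference of 0.75 had an SE of 0.54 and an adjusted p of 0.24 with all samples, and an SE of 0.14 and an adjusted p of 0.0009 without control replicate 2. Control replicate 2 stood apart here. Without it, the log2 fold change of Nfia was 8.10 in place of 7.27. The same sample was the highest of the 3 controls at 55 (52.9%) of the 104 genes called higher in Δpro#3 cells and at 14 (8.75%) of the 160 called lower, against 28.0% of all genes tested. The counts without this sample were 111 higher and 168 lower, and what set the sample apart was not tested. Myoblast identity was read from Myod1, Myf5, Des, Cdh15, Ncam1, Itga7 and Pax7. Their summed level was 874 to 882 FPKM in control and 560.5 to 571.5 FPKM in Δpro#3 cells. Of 6 leukocyte markers, 4 were under 0.5 FPKM in both groups and the sum was 8.10 to 8.25 FPKM in control and 14.4 to 15.1 FPKM in Δpro#3 cells and was carried by Cd14 and Cd68. Of 5 epithelial markers, 4 were under 0.5 FPKM, with a sum of 8.16 to 9.21 FPKM in control and 13.8 to 14.7 FPKM in Δpro#3 cells that came from Krt19. Endothelial markers summed to under 1 FPKM in every sample.

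Differences were tested with limma on log2(FPKM + 1), and genes were called where the adjusted p was under 0.05 and FPKM + 1 differed over 3-fold. All fold changes given are of FPKM + 1 and are therefore too small for weakly expressed genes. In Δpro#3 cells 104 of the 12105 genes tested were called higher (0.859%) and 160 lower (1.32%), which is the background for each count of called list members. The counts changed with the settings, and a pseudocount of 0.1 gave 278 higher and 275 lower and limma-voom on fragments 334 and 287, so that 50.3% and 53.8% of calls were higher in place of 39.4%. By the adjusted p alone, the shares of all genes were 32.5% and 29.7%, and with a 1.5-fold threshold, the background for each list count at 1.5-fold given here, they were 7.26% higher and 6.73% lower. The called genes moved by a median log2 fold change of 2.07 in the higher and -2.15 in the lower group, and 9 rises and 18 falls exceeded 10-fold. In 27 of the 104 genes called higher the control mean was under 0.5 FPKM, and in 34 of the 160 called lower the Δpro#3 mean was. The genes called lower held 1.84% to 1.92% of all fragments in control samples and 0.326% to 0.333% in Δpro#3 samples. The genes called higher went from 0.218% to 0.247% up to 1.55% to 1.60%, of which the introduced Nfia made 0.383% to 0.408%. Without Nfia they went from 0.218% to 0.240% up to 1.17% to 1.20%. Of the called genes, 30 of the 104 higher and 74 of the 160 lower belonged to the gene lists described here.

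**Figure D1:**
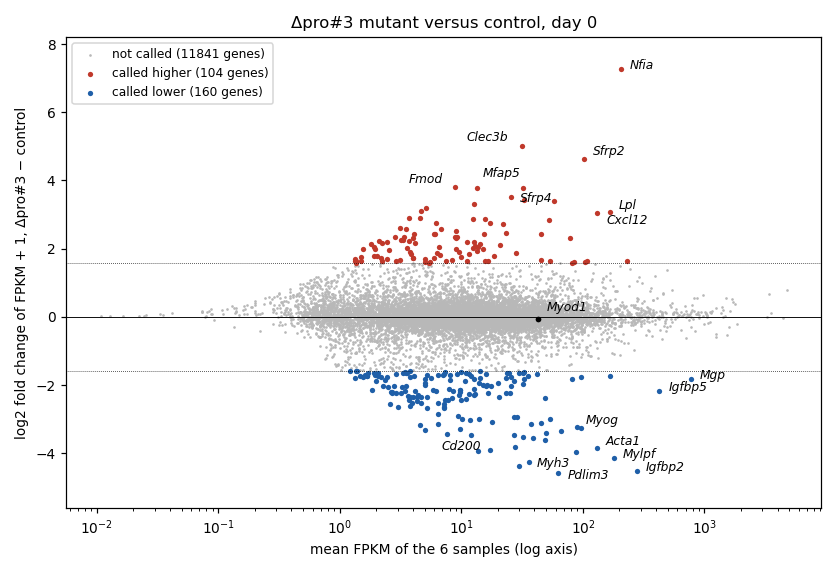
Each point is a gene, with the mean FPKM of the 6 samples on the x axis (log scale) and the log2 fold change of FPKM + 1 between Δpro#3 and control cells on the y axis. Red and blue points are the 104 genes called higher and the 160 called lower, dotted lines mark 3-fold, and Myod1 (black) lies at a log2 fold change of -0.07.

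Among the myogenic factors, Myod1 and Myog differed in response. Myod1 (chr7:53631844-53634462 in build NCBIM37, as all gene positions here) was at 40.9, 45.8 and 44.6 FPKM in control and at 42.9, 40.03 and 42.2 FPKM in Δpro#3 cells. The groups overlapped, and the log2 fold change of -0.07 (SE 0.04) had an adjusted p of 0.22. With full-length NFIA the mean was 17.8 FPKM, and the direct test between both constructs gave a log2 difference of 1.18 (adjusted p = 3.2e-09), higher with the mutant. Myog, which encodes myogenin (chr1:136186581-136189124), went from 168, 156 and 161 FPKM to 15.4, 17.9 and 15.5 FPKM, a 9.43-fold decrease (log2 fold change -3.24, SE 0.06, adjusted p = 3.7e-11). No Δpro#3 sample came near a control sample. Full-length NFIA left a mean of 1.96 FPKM, lower than the mutant by a log2 difference of 2.54 (adjusted p = 1.6e-10). Myf5, the other factor of the committed myoblast, went from 28.5 ± 1.4 to 13.3 ± 0.5 FPKM (SD, n = 3), which passed the adjusted p but not 3-fold.

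Of the 26 myogenic factors and cofactors listed, 20 were tested, 3 were called lower and none higher, with a median log2 fold change of -0.56 against 0.0095 over all genes tested. Besides Myog, the called members were Tead4, a TEA-domain factor of muscle promoters (6.38 to 1.18 FPKM, log2 fold change -1.76), and Smyd1, a muscle histone methyltransferase (8.46 to 0.837 FPKM, log2 fold change -2.36). A further 7 genes passed 1.5-fold, all lower (background 6.73%). These included Mef2a (50.5 to 24.6 FPKM) and the homeobox factor Six4 (9.90 to 4.84 FPKM). Mef2d, by contrast, had a log2 fold change of only -0.13.

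Of 21 myosin genes of the sarcomere listed, 9 were too low to be tested. Of the 12 tested, 9 were called lower and all 12 passed 1.5-fold downwards (background 6.73%), with a median log2 fold change of -2.17. Myh3, the embryonic myosin heavy chain (chr11:66891802-66915793), was at 69.1, 68.5 and 71.3 FPKM in control and at 2.51, 2.79 and 2.76 FPKM in Δpro#3 cells, a 19.2-fold decrease (log2 fold change -4.26, SE 0.05, adjusted p = 2.9e-12). Mylpf, a fast-fiber regulatory light chain, went from 370, 317 and 332 FPKM to 15.99, 21.1 and 18.2 FPKM. Myl9, a light chain of smooth muscle and non-muscle cells, changed less, from 196 to 119 FPKM. Among 20 actin, troponin and tropomyosin genes, 12 were called lower and 16 passed 1.5-fold downwards, with 1 positive member and a median log2 fold change of -2.10.

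Both striated actins were among the largest decreases. Acta1 (skeletal α-actin, chr8:126415669-126418651) was at 243, 238 and 253 FPKM in control and at 15.3, 16.2 and 16.7 FPKM in Δpro#3 cells, 14.4-fold lower (log2 fold change -3.85, SE 0.05, adjusted p = 5.4e-12). Actc1 (cardiac α-actin) went from 170, 161 and 171 FPKM to 9.54, 9.37 and 10.2 FPKM. The smooth muscle actin Acta2 differed far less, with 952 FPKM in control and 716 FPKM in Δpro#3 cells, while Actg2 was called lower (151 to 43.6 FPKM). These actins share much coding sequence, and only uniquely mapped reads had been counted, so their split between paralogs is uncertain. Among the troponins, Tnnt3 of fast fibers fell from 90.5 to 6.47 FPKM, Tnni1 of slow fibers from 91.6 to 7.66 FPKM and Tnnt2, the cardiac troponin T, from 121 to 11.05 FPKM. Mybph, a myosin-binding protein, fell from 72.1 to 5.26 FPKM. Tpm2 went only from 224 to 142 FPKM.

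At the Z-disc and costamere most of the changes were decreases. Of 34 genes tested, 13 were called lower and 1 higher, with a median log2 fold change of -0.94. In all, 19 passed 1.5-fold downwards and 2 upwards (backgrounds 6.73% and 7.26%). Pdlim3, an α-actinin-binding LIM protein (chr8:46970839-47004900), showed the largest decrease of all named genes, from 125, 120 and 119 FPKM to 3.56, 4.97 and 4.03 FPKM (23.7-fold, log2 fold change -4.57, SE 0.12, adjusted p = 2.2e-10). Actn3 (sarcomeric α-actinin), Ttn (titin), Klhl41 and the myosin chaperone Unc45b were also called lower. Des, which encodes the intermediate filament desmin and is already on in myoblasts, went from 445 to 301 FPKM, and Ldb3 from 15.5 to 21.7 FPKM, neither of them past 3-fold. The gene called higher was Sgcd (δ-sarcoglycan), at 4.97, 4.86 and 4.93 FPKM in control and 22.4, 21.7 and 21.1 FPKM in Δpro#3 cells (log2 fold change 1.94, SE 0.04, adjusted p = 3.2e-11). It is a dystrophin-complex member that many mesenchymal cells also express, and it reached 49.0 FPKM with full-length NFIA.

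In the excitation-contraction coupling list 8 of 20 genes tested were called lower (background 1.32%), none higher (median log2 fold change -1.32). Casq2, a calsequestrin of the sarcoplasmic reticulum, went from 24.3, 21.1 and 22.9 FPKM to 1.34, 1.11 and 1.01 FPKM (log2 fold change -3.47, SE 0.07, adjusted p = 5.1e-11). The calcium pump Atp2a1 (28.2 to 5.15 FPKM), Ryr1 (6.24 to 0.760 FPKM) and Cacna1s (2.95 to 0.163 FPKM) were called lower as well. At the neuromuscular junction 5 of 13 genes were called lower (median log2 fold change -1.07). By the adjusted p alone 11 of the 13 were lower and 1 higher, against 29.7% and 32.5% of all genes. The acetylcholine receptor subunits differed in size of effect, with Chrnd at 53.0 and 2.82 FPKM (log2 fold change -3.82), Chrng at 48.3 and 5.47 FPKM (-2.93), Chrnb1 at 39.2 and 7.596 FPKM (-2.23) and Chrna1 at 134 and 58.9 FPKM (-1.18, not past 3-fold). The kinase Musk changed by only -0.14.

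Myoblast fusion rests on a pair of muscle-specific membrane proteins, and both genes fell steeply. Mymk (myomaker) was at 61.4, 59.1 and 58.6 FPKM in control and at 3.94, 4.66 and 4.11 FPKM in Δpro#3 cells (log2 fold change -3.54, SE 0.06, adjusted p = 1.7e-11). Mymx (myomerger) went from 15.2, 13.8 and 15.4 FPKM to 0.421, 0.417 and 0.593 FPKM (log2 fold change -3.42, SE 0.06, adjusted p = 3.6e-11). No other fusion or adhesion gene of the 28 tested was called apart from Lrrn1 (58.1 to 1.84 FPKM), a leucine-rich repeat protein, and the list median was only -0.18. Cdh15 (M-cadherin) went from 138 to 75.0 FPKM. Among 18 genes of creatine and energy metabolism, 3 were called lower, namely Ckm (muscle creatine kinase, 26.6 to 0.803 FPKM), Mb (myoglobin, 10.7 to 1.58 FPKM) and Pygm (glycogen phosphorylase, 5.75 to 1.19 FPKM), and Ckb, the brain-type creatine kinase, went from 50.3 to 38.6 FPKM. Pygm fell under 3-fold without Δpro#3 replicate 1 (log2 fold change -1.58). In a bulk sample, fewer differentiating cells and less of these mRNAs per cell cannot be told apart.

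The mutant was also tested directly against full-length NFIA, where 33.4% of all genes tested were higher with the mutant and 31.9% lower at an adjusted p under 0.05. All 12 myosins, 19 of the 20 actin, troponin and tropomyosin genes and 16 of the 20 excitation-contraction genes were higher with the mutant, and 2 of the last were lower. At the Z-disc and costamere 26 of 34 genes were higher and 6 lower, and at the neuromuscular junction 9 of 13 were higher and 3 lower. Of the 20 myogenic factors 12 were higher and 4 lower, of the 28 fusion and adhesion genes 14 and 7, and of the 18 genes of creatine and energy metabolism 12 and 3. Summed over 5 markers of mature fibers (Ckm, Myh4, Myh1, Acta1 and Mb), the level was 280.5 to 295.7 FPKM in control, 19.1 to 19.9 FPKM in Δpro#3 cells and 2.02 to 2.04 FPKM with full-length NFIA. The ranges of the 3 groups did not overlap. Acta1 made most of the sum in each group, with means of 245, 16.1 and 1.54 FPKM in the same order. Its split from the other actins is uncertain, as said above.

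**Figure D2:**
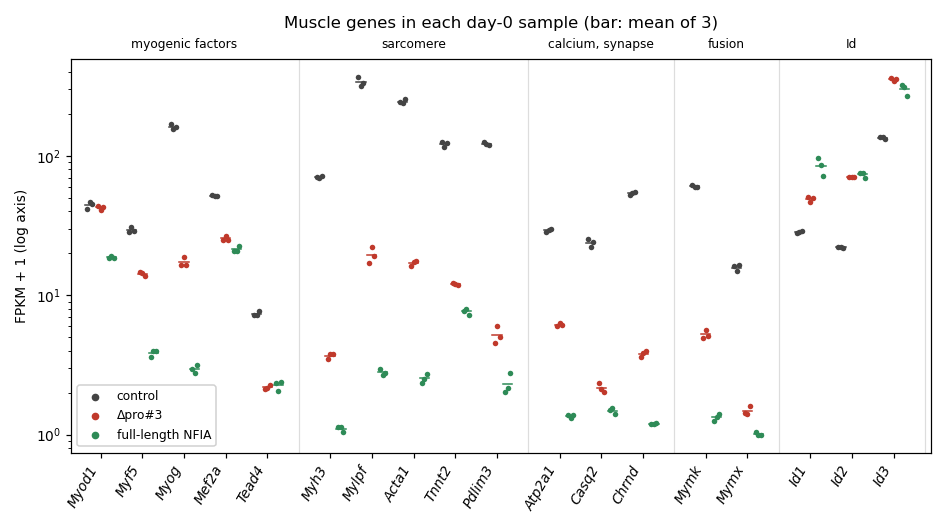
Each point is a day-0 sample and each short bar the mean of 3, with FPKM + 1 on a log axis, for control (grey), Δpro#3 (red) and full-length NFIA (green). Myod1 overlaps between control and Δpro#3 samples, while Myog, Myh3, Mylpf, Acta1, Chrnd, Mymk and Mymx lie far below control in Δpro#3 cells.

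The promoters of the called genes were read for a few known motifs, which the calls had not used. Promoters from 250 bases before to 50 bases after the gene start were taken from RefSeq (GRCm38.p6, a later build than that of the gene positions above), 1 per symbol, and were found for 111 of the 160 genes called lower, 65 of the 104 called higher and 9342 of all genes tested. The E-box CAGCTG, the same on both strands and the form that MyoD and myogenin prefer, was present in 37 (33.3%) of the promoters of genes called lower, in 11 (16.9%) of those called higher and in 1394 (14.9%) of all. The TEAD motif CATTCC on either strand was present in 26.1%, 12.3% and 11.7% in the same order. The AP-1 motif TGANTCA was in 1.80% of the promoters of genes called lower, 10.8% of those called higher and 4.85% of all. The MEF2-like core was found in 3.60%, 0% and 2.92%, and the full NFI palindrome in none of the promoters of called genes and in 0.0428% of all. These shares are descriptions with no test, and a motif in a promoter is not a bound site. Of the 12 genes with the largest decreases, promoters were found for 10 (not for Chrnd and Tnnt3), and 6 of these held the E-box in this window. The promoters of these 6 are shown 5′ to 3′ on the gene's strand with the E-box in capitals, because the E-box had the highest share of the motifs searched among genes called lower.
Pdlim3, chr8:45885237-45885536, plus strand: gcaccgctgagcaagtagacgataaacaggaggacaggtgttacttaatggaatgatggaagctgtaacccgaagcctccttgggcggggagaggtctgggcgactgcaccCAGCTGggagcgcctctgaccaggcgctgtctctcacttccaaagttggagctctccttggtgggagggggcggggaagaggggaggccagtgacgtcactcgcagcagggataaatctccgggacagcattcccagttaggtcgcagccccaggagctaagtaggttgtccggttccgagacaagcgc
Lrrn1, chr6:107529476-107529775, plus strand: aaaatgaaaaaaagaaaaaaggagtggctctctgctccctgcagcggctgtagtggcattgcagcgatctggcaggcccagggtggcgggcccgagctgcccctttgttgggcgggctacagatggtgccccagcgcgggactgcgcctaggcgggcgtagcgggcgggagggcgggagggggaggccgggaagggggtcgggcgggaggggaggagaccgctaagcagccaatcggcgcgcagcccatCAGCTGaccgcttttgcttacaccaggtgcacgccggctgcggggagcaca
Mylpf, chr7:127211358-127211657, plus strand: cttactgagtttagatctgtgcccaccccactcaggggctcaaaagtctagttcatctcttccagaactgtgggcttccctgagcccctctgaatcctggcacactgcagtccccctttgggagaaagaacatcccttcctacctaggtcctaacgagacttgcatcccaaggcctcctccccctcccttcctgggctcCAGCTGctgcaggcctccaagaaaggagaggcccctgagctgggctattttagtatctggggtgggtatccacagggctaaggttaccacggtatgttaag
Ckm, chr7:19410844-19411143, plus strand: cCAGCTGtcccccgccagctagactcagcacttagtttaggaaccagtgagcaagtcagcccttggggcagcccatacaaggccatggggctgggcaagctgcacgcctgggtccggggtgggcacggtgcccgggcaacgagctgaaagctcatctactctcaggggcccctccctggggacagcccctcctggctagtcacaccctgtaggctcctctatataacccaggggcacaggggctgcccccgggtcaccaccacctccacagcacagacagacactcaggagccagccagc
Acta1, chr8:123894726-123895025, minus strand: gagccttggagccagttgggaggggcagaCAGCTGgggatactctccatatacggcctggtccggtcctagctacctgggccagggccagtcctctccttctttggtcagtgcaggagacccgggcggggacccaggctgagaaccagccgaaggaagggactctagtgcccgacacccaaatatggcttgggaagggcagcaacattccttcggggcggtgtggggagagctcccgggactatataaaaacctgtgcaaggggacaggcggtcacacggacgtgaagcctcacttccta
Mybph, chr1:134193198-134193497, plus strand: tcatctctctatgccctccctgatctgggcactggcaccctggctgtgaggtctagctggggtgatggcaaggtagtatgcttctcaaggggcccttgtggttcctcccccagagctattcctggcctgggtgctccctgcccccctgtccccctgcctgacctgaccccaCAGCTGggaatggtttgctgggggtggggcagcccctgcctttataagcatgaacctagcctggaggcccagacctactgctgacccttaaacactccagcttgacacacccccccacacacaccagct

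The E-box began 139 bases before the gene start in Pdlim3, 51 before it in Mylpf, 249 in Ckm, 221 in Acta1 and 79 in Mybph, and it lay across the start in Lrrn1. Its place in the window therefore varied among these genes. Pdlim3, Acta1 and Mybph also held the TEAD motif. The promoter of Myog held no CAGCTG in this window, and that of the called-higher gene Id2 held 1.

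**Figure D3:**
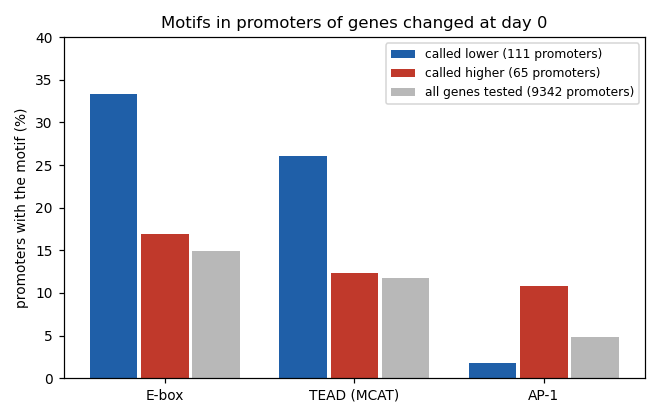
Bars give the percentage of promoters that hold the E-box CAGCTG, the TEAD motif or the AP-1 motif among genes called lower (blue, 111 promoters), called higher (red, 65) and all genes tested (grey, 9342). The E-box is at 33.3% among genes called lower and at 14.9% among all.

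The inhibitors of myogenic bHLH factors were divided between those that rose and those that fell. Id2, which sequesters E proteins, was at 21.2, 21.2 and 20.8 FPKM in control and at 69.1, 69.6 and 69.1 FPKM in Δpro#3 cells (3.19-fold, log2 fold change 1.67, SE 0.03, adjusted p = 5.1e-11). Id3 went from 134 to 354 FPKM and Id1 from 27.5 to 48.2 FPKM, both past 1.5-fold only. For Id2 the level with full-length NFIA (72.6 FPKM) did not differ past the threshold from that with the mutant (adjusted p = 0.11). Snai2, a zinc-finger repressor that competes for E-boxes, went from 48.7 to 84.8 FPKM. The Notch effector Heyl moved the other way, from 21.2, 20.6 and 21.8 FPKM to 3.98, 4.15 and 4.21 FPKM (log2 fold change -2.12, SE 0.05, adjusted p = 1.2e-10). Of 20 Notch pathway genes listed, 8 were too low to be tested. Of the 12 tested, 2 were called lower (Heyl and the ligand Jag2, 11.3 to 2.75 FPKM) and 7 passed 1.5-fold downwards (background 6.73%), with a median log2 fold change of -1.12. Receptor Notch3 (47.8 to 18.4 FPKM), ligand Dll1 (4.22 to 1.28 FPKM) and targets Hes1 (23.1 to 9.61 FPKM) and Hey1 (3.16 to 0.693 FPKM) were among them, and Lfng, a glycosyltransferase that modifies Notch, was the single member past 1.5-fold upwards (7.56 to 19.6 FPKM).

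Adipogenic transcription factors moved in both directions. Of 25 tested, 1 was called higher and 1 lower, with a median log2 fold change of 0.15. Pparg, the master regulator of adipogenesis (chr6:115311239-115440419), was at 2.43, 2.24 and 2.09 FPKM in control and at 8.98, 8.61 and 9 FPKM in Δpro#3 cells, 3.03-fold higher (log2 fold change 1.60, SE 0.07, adjusted p = 1.1e-08). It lay just above the threshold, and without control replicate 3 its log2 fold change of 1.56 was just below. Cebpd (1.64 to 5.48 FPKM) and Cebpa (6.70 to 15.965 FPKM) passed 1.5-fold, while Cebpb (9.85 to 12.3 FPKM) did not pass the adjusted p (0.10). With full-length NFIA, Pparg was at 14.2 FPKM, above the mutant (log2 difference -0.62, adjusted p = 1.9e-05). Cebpa was at 39.0 FPKM there (-1.23, adjusted p = 3.2e-07). In the direct test 13 of the 25 were lower with the mutant and 9 higher, against 31.9% and 33.4% of all genes tested. The gene called lower was Klf5, a Krüppel-like factor of early adipogenesis, at 9.07, 10.6 and 11.7 FPKM in control and 2.46, 2.48 and 2.59 FPKM in Δpro#3 cells (log2 fold change -1.70, SE 0.09, adjusted p = 3.6e-08). The study also describes KLF5 as a positive regulator of myogenesis. Klf5 was lower still with full-length NFIA (1.06 FPKM). Ebf2 and Ucp1 were at or near 0 FPKM in all 6 samples.

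Of 43 listed adipocyte products and lipid storage genes, 16 were too low to be tested. Of the 27 tested, 4 were called higher and none lower, and 12 passed 1.5-fold upwards (background 7.26%) with none downwards, while 3 were lower by the adjusted p alone. Lpl, the lipoprotein lipase that releases fatty acids for uptake (chr8:71404390-71431347), went from 33.5, 38.8 and 31.7 FPKM to 295, 311 and 288 FPKM (8.41-fold, log2 fold change 3.07, SE 0.06, adjusted p = 6.4e-11). Plin4, a lipid droplet coat protein, went from 1.96, 2.93 and 2.13 FPKM to 15.2, 16.1 and 15.5 FPKM, and Mgll, monoacylglycerol lipase, from 0.353 to 3.68 FPKM. Mgll was higher in Δpro#3 cells than in cells with full-length NFIA (2.09 FPKM, adjusted p = 2.0e-05), and Plin4 was lower (53.0 FPKM, adjusted p = 8.0e-08).

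The fatty acid-binding protein gene Fabp4 varied between replicates. It was at 0.371, 0.270 and 0.0563 FPKM in control and at 7.37, 0.478 and 4.53 FPKM in Δpro#3 cells, so replicate 2 lay close to the controls and the other samples far above. The log2 fold change of 1.74 (SE 0.48, adjusted p = 0.0094) became 2.47 without that replicate and fell under 3-fold without replicate 1 (1.22) or replicate 3 (1.52). Plin2, a ubiquitous droplet protein, was at 151 and 138 FPKM. Markers of the mature adipocyte (Adipoq, Plin1, Cidec, Lep and Retn) summed to at most 1.59 FPKM in Δpro#3 cells and 0.0311 FPKM in control, and none of them was high enough to be tested.

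Of 30 listed markers of mesenchymal progenitors, 12 were too low to be tested. Of the other 18, 11 passed 1.5-fold upwards and 4 downwards in Δpro#3 cells (backgrounds 7.26% and 6.73%), with a median log2 fold change of 0.68, but only Clec3b was called higher. Clec3b (tetranectin) was at 0.722, 2.30 and 0.270 FPKM in control and at 64.6, 57.6 and 62.8 FPKM in Δpro#3 cells (log2 fold change 5.02, SE 0.26, adjusted p = 3.7e-08), and was at 79.3 FPKM with full-length NFIA. That difference between constructs (log2 difference -0.36) had an adjusted p of 0.24 with all samples and of 0.0076 without control replicate 2. Cd34 went from 32.6 to 98.2 FPKM, Pdgfra, a growth factor receptor of these progenitors, from 4.41 to 12.9 FPKM, and Ly6a (Sca-1) from 273 to 715 FPKM. Ly6a was higher in Δpro#3 cells than in cells with full-length NFIA (350 FPKM, adjusted p = 8.6e-09), whereas Cd34 and Pdgfra were lower. Of the 18 tested, 9 were higher with the mutant in this direct test and 2 lower, against 33.4% and 31.9% of all genes. Mgp, the matrix Gla protein that blocks calcification, was called lower at 1261, 1186 and 1161 FPKM in control and 331, 343 and 340 FPKM in Δpro#3 cells (log2 fold change -1.83, SE 0.05, adjusted p = 2.4e-10).

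Extracellular matrix genes moved in both directions. Among 11 small leucine-rich proteoglycans 2 were called higher and 2 lower. Fmod (fibromodulin), which binds collagen fibrils, went from 0.135, 0.717 and 0.184 FPKM to 17.8, 17.4 and 17.1 FPKM (13.9-fold, log2 fold change 3.8, SE 0.13, adjusted p = 1.2e-09), and Prelp from 2.70, 7.09 and 3.36 FPKM to 27.035, 26.99 and 25.5 FPKM. Lum (lumican) moved the other way, from 6.72 to 0.540 FPKM, as did Aspn (asporin), from 45.7 to 13.9 FPKM. Dcn (decorin) went from 116 to 44.0 FPKM and Bgn (biglycan) from 1139 to 997 FPKM, neither past 3-fold. All but 1 of the 11 were lower in Δpro#3 cells than in cells with full-length NFIA, against 31.9% of all genes tested. Of 25 collagens, Col14a1 (1.16 to 10.7 FPKM) and Col28a1 (0.441 to 6.36 FPKM) were called higher and Col18a1 (43.5 to 11.03 FPKM) lower, while the fibrillar Col1a1 stayed near its level (276 and 255 FPKM) and Col3a1 went from 1503 to 1004 FPKM. Among the 25, 8 passed 1.5-fold upwards and 2 downwards (backgrounds 7.26% and 6.73%).

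The list of elastic fiber and matrix crosslinking genes included several of the largest rises. Of 32 tested, 4 were called higher and none lower, and 14 passed 1.5-fold upwards and 7 downwards (backgrounds 7.26% and 6.73%). Mfap5, a microfibril glycoprotein, was at 0.954, 1.05 and 0.893 FPKM in control and at 26.7, 27.1 and 24.0 FPKM in Δpro#3 cells (log2 fold change 3.77, SE 0.08, adjusted p = 5.1e-11). Fbln7, a fibulin, went from 4.79 to 60.3 FPKM and exceeded its level with full-length NFIA (37.6 FPKM, adjusted p = 8.6e-05). The other members called higher were Sparcl1, a SPARC-like matricellular protein (0.213 to 10.1 FPKM), and Lox, lysyl oxidase (112 to 346 FPKM). Adamtsl4, which was not a member of this list but promotes fibrillin assembly, went from 3.25, 4.59 and 2.80 FPKM to 62.2, 59.5 and 58.9 FPKM. Elastin itself behaved otherwise. Eln was at 0.0438, 1.40 and 0.00995 FPKM in control, 2.81, 2.42 and 2.66 FPKM in Δpro#3 cells and 194 FPKM with full-length NFIA, a log2 difference between constructs of -5.75 (adjusted p = 1.3e-08). Its log2 fold change from control, 1.41, was not past 3-fold but reached 1.82 without control replicate 2. Fbln5, which elastic fibers need for assembly, was at 4.92, 8.44 and 62.8 FPKM in the same order of groups.

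Matrix turnover genes also split. Serpine2, an inhibitor of serine proteases, was called higher (12.2 to 93.8 FPKM, log2 fold change 2.85), and Plau (urokinase, 128 to 35.5 FPKM), Mmp15 (8.04 to 0.622 FPKM) and Adamts4 (14.6 to 2.47 FPKM) were called lower among 25 tested. Of 27 integrin and laminin genes, Itga10 alone was called (13.7 to 1.74 FPKM, lower).

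Of 26 Wnt pathway genes tested, 5 were called higher and none lower, and 12 passed 1.5-fold upwards and 3 downwards (backgrounds 7.26% and 6.73%). The Sfrp genes encode secreted antagonists that bind Wnt ligands. Sfrp2 (chr3:83570243-83578238) went from 5.79, 9.45 and 5.96 FPKM to 199.8, 202 and 188 FPKM (log2 fold change 4.64, SE 0.13, adjusted p = 3.9e-10), still far below the 1484 FPKM with full-length NFIA. Sfrp4 (chr13:19714973-19724863) showed the opposite order of constructs. It was at 2.95, 3.95 and 3.10 FPKM in control and at 48.6, 46.3 and 48.4 FPKM in Δpro#3 cells (log2 fold change 3.50, SE 0.08, adjusted p = 1.1e-10), above the 11.5 FPKM with full-length NFIA by a log2 difference of 1.97 (adjusted p = 6.5e-09). Sfrp1 was at 0.104 and 0.719 FPKM in control and Δpro#3 cells and was not past 3-fold. Dkk2, a Wnt co-receptor antagonist, went from 3.56, 3.42 and 3.34 FPKM to 16.1, 14.1 and 17.2 FPKM and was at 3.74 FPKM with full-length NFIA. The other members called higher were Rspo2, an R-spondin that enhances Wnt signaling (0.892 to 4.93 FPKM), and Nkd2, an intracellular antagonist (1.03 to 6.56 FPKM). Wisp1, a matricellular protein induced by Wnt, went from 53.7 to 21.3 FPKM.

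Of 15 genes of the insulin-like growth factor (IGF) system tested, 3 were called, all lower and all encoding binding proteins, while 5 passed 1.5-fold downwards and 3 upwards (backgrounds 6.73% and 7.26%). Igfbp2 (chr1:72871077-72899048) was at 541, 524 and 527 FPKM in control and at 23.3, 20.9 and 23.0 FPKM in Δpro#3 cells (22.8-fold, log2 fold change -4.51, SE 0.06, adjusted p = 2.9e-12). Igfbp5, a binding protein of differentiating myoblasts and a neighbor of Igfbp2 on chromosome 1 (chr1:72904506-72921458), went from 671, 698 and 725 FPKM to 153, 160 and 151 FPKM. Igfbp4 went from 14.5, 12.2 and 12.9 FPKM to 1.22, 1.18 and 1.20 FPKM, lower than the 4.38 FPKM with full-length NFIA (adjusted p = 1.3e-07). Other binding proteins went the opposite way, with Igfbp6 at 75.1 and 162 FPKM and Igfbp7 at 94.5 and 218 FPKM in control and Δpro#3 cells, both past 1.5-fold. The ligand Igf1 went from 2.34 to 6.67 FPKM and Igf2 from 8.67 to 9.89 FPKM (adjusted p = 0.18). In the TGF-β superfamily 1 of 27 genes was called, Fst (follistatin, an activin and myostatin antagonist), higher at 1.67, 2.26 and 1.65 FPKM in control and 7.75, 8.71 and 8.18 FPKM in Δpro#3 cells. Bmp4 passed 1.5-fold, from 31.5 to 80.9 FPKM.

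Chemokine genes moved in both directions. Of 29 chemokine, cytokine and receptor genes tested, 4 were called higher and 2 lower. The CXC chemokine Cxcl12, a stromal ligand of CXCR4 (chr6:117118553-117131385), was at 28.0, 26.8 and 28.2 FPKM in control and at 234, 235 and 230 FPKM in Δpro#3 cells (8.17-fold, log2 fold change 3.03, SE 0.04, adjusted p = 6.8e-12). The neutrophil attractants Cxcl5 (25.7 to 132 FPKM) and Cxcl1 (7.15 to 34.3 FPKM) also rose. For all of Cxcl12, Cxcl5 and Cxcl1, levels with full-length NFIA were lower than with the mutant (109, 49.4 and 15.9 FPKM). Ptx3, a pentraxin of innate immunity, was the fourth gene called higher (2.12 to 10.4 FPKM) and was higher still with full-length NFIA (43.2 FPKM). Ccl2, a monocyte attractant, went from 15.7, 13.2 and 14.6 FPKM to 4.42, 4.14 and 2.97 FPKM (log2 fold change -1.69, adjusted p = 2.3e-06), or -1.55 without Δpro#3 replicate 3, which is under 3-fold. Its neighbors on chromosome 11, Ccl7 (19.99 to 6.08 FPKM) and Ccl11 (3.10 to 0.450 FPKM), were lower past 1.5-fold. Cxcl13, a B cell attractant, was called lower, from 3.62 to 0.0379 FPKM. Cd14 and Cd68, the leukocyte markers detected, rose from 5.86 to 10.7 FPKM and from 2.28 to 3.94 FPKM, and their part in these values was not tested.

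**Figure D4:**
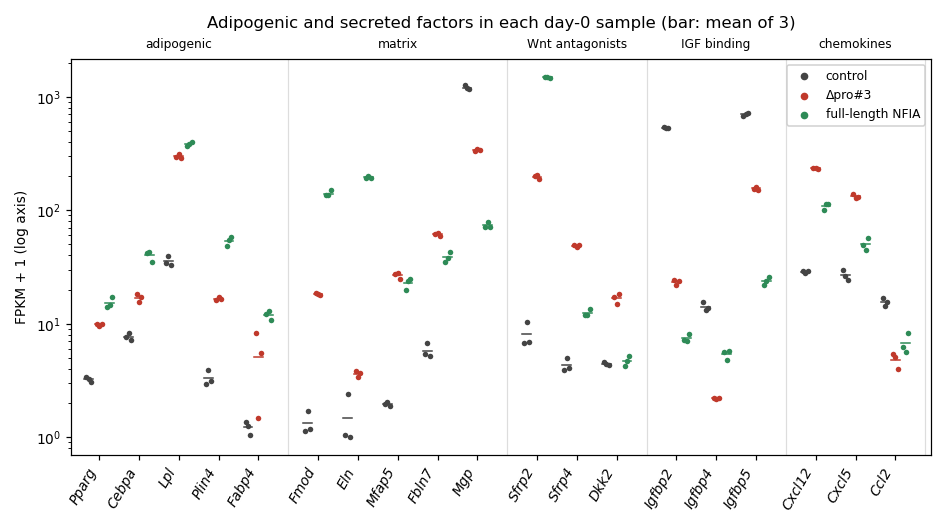
Each point is a day-0 sample and each short bar the mean of 3, with FPKM + 1 on a log axis, for control (grey), Δpro#3 (red) and full-length NFIA (green). Sfrp4, Dkk2, Cxcl12 and Cxcl5 are highest in Δpro#3 cells, Fmod, Eln and Sfrp2 are highest with full-length NFIA, and Fabp4 spreads from 0.478 to 7.37 FPKM among Δpro#3 samples.

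Of 45 genes of DNA replication and mitosis tested, none was called higher and 1 lower, with a median log2 fold change of 0.16. By the adjusted p alone 26 were higher and 7 lower (backgrounds 32.5% and 29.7%). Mki67, a proliferation marker, was at 17.2, 18.2 and 19.3 FPKM in control and at 24.1, 23.4 and 25.5 FPKM in Δpro#3 cells (log2 fold change 0.40, SE 0.04, adjusted p = 1.7e-05). All 45 were lower in Δpro#3 cells than in cells with full-length NFIA at an adjusted p under 0.05, against 31.9% of all genes tested, and Mki67 was at 60.1 FPKM there. The gene called lower was E2f2, an E2F activator (11.8 to 1.20 FPKM). Cdkn1a (p21), the cell cycle inhibitor that rises as myoblasts exit the cycle, went from 161, 160 and 162 FPKM to 73.5, 73.1 and 70.1 FPKM (log2 fold change -1.14, SE 0.03, adjusted p = 1.2e-10), and Ccnd3 from 88.5 to 47.8 FPKM. Ccnd1 was at 34.8 and 35.9 FPKM (adjusted p = 0.27), against 86.9 FPKM with full-length NFIA.

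Of 24 genes of cholesterol synthesis and uptake tested, 18 passed 1.5-fold upwards and none downwards, against 7.26% and 6.73% of all genes, and the median log2 fold change was 0.96. Only Hsd17b7 was called (6.85, 7.57 and 7.10 FPKM in control and 23.8, 23.9 and 25.4 FPKM in Δpro#3 cells, log2 fold change 1.64). Sqle, squalene epoxidase, went from 52.3 to 101 FPKM, Idi1 from 6.23 to 16.5 FPKM and the sterol sensor Insig1 from 32.3 to 70.9 FPKM. Srebf2, which encodes the transcription factor of the pathway, went from 105 to 85.9 FPKM. Direct comparison placed 20 of the 24 lower in Δpro#3 cells than in cells with full-length NFIA, against 31.9% of all genes tested.

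Further lists held few called genes. Of 49 interferon-stimulated genes, none was called, while 9 passed 1.5-fold upwards and 2 downwards (backgrounds 7.26% and 6.73%). Among these, Samhd1 went from 23.1 to 66.9 FPKM, Lgals3bp from 16.5 to 43.9 FPKM and Ifit3 from 3.27 to 10.8 FPKM, with 1.88, 4.83 and 3.09 FPKM in the control samples. Of 19 Hox genes tested, 2 passed 1.5-fold, both higher. In the S100 family S100b was called higher (0.192 to 3.70 FPKM), and S100a4 went from 3490 to 6037 FPKM. Of 15 reference genes none passed 1.5-fold, with a median log2 fold change of -0.0026.

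**Figure D5:**
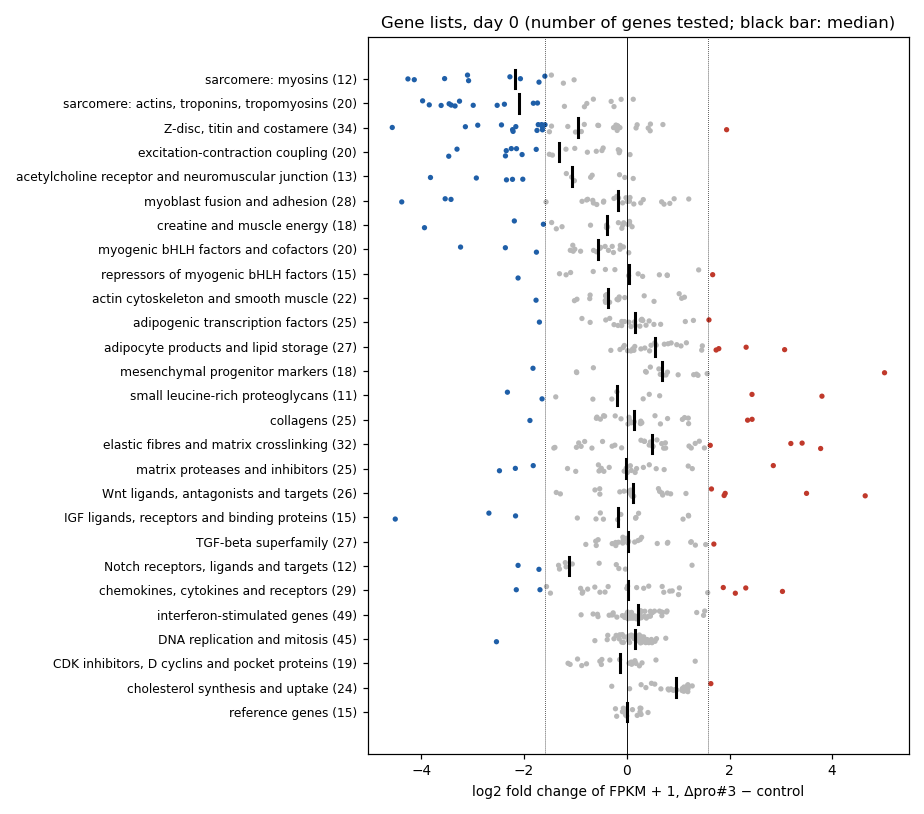
Points are genes, placed by their log2 fold change of FPKM + 1 between Δpro#3 and control cells, for each gene list with the number tested in brackets. Red and blue points are genes called higher and lower, black bars are medians and dotted lines mark 3-fold. Medians of the sarcomere lists lie at -2.17 and -2.10, that of cholesterol synthesis at 0.96 and that of reference genes at -0.0026.

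By the direct test between constructs, 53 of the 104 genes called higher were higher with the mutant than with NFIA and 42 lower, and 113 of the 160 called lower were higher and 24 lower. Some single genes outside the lists are given with each group's level, as examples that do not stand for the called genes as a whole. Those named in this paragraph were chosen after their values had been seen, other than Cd200, and the mutant samples enter both comparisons. Cd200, an immune-regulatory surface glycoprotein, was at 35.1, 31.3 and 33.4 FPKM in control, at 1.34, 1.13 and 1.36 FPKM in Δpro#3 cells (log2 fold change -3.91, SE 0.06, adjusted p = 8.1e-12) and at 6.02 FPKM with full-length NFIA. Mcam (CD146), a cell adhesion molecule, went from 12.3, 12.2 and 11.6 FPKM to 0.710, 1.01 and 0.734 FPKM with the mutant but was at 10.5 FPKM with full-length NFIA (log2 difference between constructs -2.67, adjusted p = 2.7e-10). Likewise, Ptk7, a Wnt co-receptor of planar cell polarity, was at 22.7, 5.16 and 26.996 FPKM in control, Δpro#3 and full-length NFIA cells, and Sdc3 (syndecan-3) at 42.5, 8.26 and 30.1 FPKM. In the other direction, Csf2rb, the common β receptor subunit of several hematopoietic cytokines, went from 2.82, 3.31 and 2.81 FPKM to 26.7, 31.0 and 26.6 FPKM and was at 1.14 FPKM with full-length NFIA (log2 difference 3.78, adjusted p = 6.4e-10). Reads of Csf2rb can be shared with its near-identical neighbor Csf2rb2, so the split between them is uncertain. Gda, guanine deaminase, was at 0.168, 6.15 and 0.388 FPKM and Prr5l, an mTOR complex-associated protein, at 1.96, 8.05 and 1.19 FPKM in control, Δpro#3 and full-length NFIA cells. Angpt4, an angiopoietin, was called higher (4.71 to 22.6 FPKM) but reached 223 FPKM with full-length NFIA.

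Of the other NFI family members, Nfib fell from 9.58 to 7.28 FPKM (adjusted p = 1.0e-05) and Nfic from 51.5 to 36.2 FPKM (adjusted p = 5.2e-06), with no overlap between groups. Of all genes tested, 33.8% were likewise lower in Δpro#3 cells with no overlap. Nfix was at 41.8 and 39.1 FPKM (adjusted p = 0.11). None of them passed 1.5-fold. Measured against day 7, after adipocyte differentiation had been induced, the effect of the mutant differed at 293 genes. The effect was more positive at day 7 at 191 of them (1.54%) and more negative at 102 (0.822%). The 293 genes became 586 with a pseudocount of 0.1 and 674 with limma-voom.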

How the data were processed

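Polyadenylated RNA of C2C12 cells was sequenced with a stranded kit. Reads were aligned by the authors to mm9 with STAR 2.5.3a, uniquely mapped reads were kept, and FPKM per gene were deposited, unscaled between samples. From the deposited FPKM the fragments per gene were worked back (checked on values of up to 1000 fragments, 9823 to 12988 per sample, all within 0.01 of a whole fragment) and used for the depth and 1 alternative.

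Samples were grouped by the labels. With limma 3.58.1 in R 4.3.3, log2(FPKM + 1) of the 9 day-0 samples was fitted with group means, over the 12105 genes with a mean of 0.5 FPKM or more, with moderated variances that follow the mean, and 2-sided p-values were adjusted by Benjamini-Hochberg over all of them. The same fit gave the contrast of the mutant with full-length NFIA, whose comparison with control shares the control samples. The effects at day 7 and day 0 were compared over 18 samples and 12408 genes. Replicate numbers did not pair the samples (correlations of deviations -0.0032, -0.027 and 0.066). On simulated data with 200 changed among 11916 genes, 95% were recovered with 0 false calls. Recovery and false calls in the deposited samples were not tested.

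Named genes were the 12 largest rises and 12 largest falls called (mean of 1 FPKM or more, no overlap between groups), up to 6 called members and the leading members of each of 37 gene lists, genes the study names, and the 3 largest differences between days each way. Other list members named beside them were chosen after their values were seen. The comparison, lists and rule were all chosen with earlier results of these data known. Lists were described by counts and medians, with no set test. Of the 952 list entries, 2 were not found in the files and are not analysed here, and some others are not reported here. Gene positions are from GENCODE for NCBIM37, and promoters from RefSeq, the first listed for each symbol. Figures were drawn with matplotlib 3.10.9. The alternatives were a pseudocount of 0.1, median-ratio scaling, no filter, a minimum of 5 FPKM, no variance trend, the replicate number as a block, limma-voom on fragments, only the 2 groups compared, a 1.5-fold threshold and leaving out each sample.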

Additional observations from a re-analysis of the deposited data

Results flagged for a closer look

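The effect of the Δpro#3 mutant differed between day 7 and day 0 at 293 genes (limma interaction, adjusted p under 0.05 and more than 3-fold), or 586 with a pseudocount of 0.1 and 674 with limma-voom. Of the 293, 191 (1.54% of 12408 tested) had a more positive effect at day 7 and 102 (0.822%) a more negative one. C3, the central complement component, was under 0.3 FPKM in all control and Δpro#3 samples at day 0, and at day 7 it was at 1.51, 1.75 and 1.73 FPKM in control and 169, 79.7 and 73.2 FPKM in Δpro#3 cells, a difference of effects of 4.98 on the log2 scale (SE 0.29, adjusted p = 9.3e-10). Sln (sarcolipin, an inhibitor of the muscle calcium pump) was listed at 0 in the control samples of day 0 and was at 0.614, 0.939 and 0.593 FPKM in Δpro#3 cells. At day 7 it was at 0.252, 0.457 and 1.15 FPKM in control and 101, 75.6 and 62.3 FPKM in Δpro#3 cells, a difference of 4.88 (SE 0.36, adjusted p = 1.6e-08). Pdlim3 was lower in Δpro#3 cells at day 0 but was at 234, 252 and 323 FPKM in control and 290, 280 and 294 FPKM in Δpro#3 cells at day 7, where the groups overlapped, a difference of 4.67 (SE 0.20, adjusted p = 2.7e-11).

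Sfrp2, higher in Δpro#3 cells at day 0, was at 8.99, 8.46 and 8.27 FPKM in control and 20.2, 10.5 and 11.3 FPKM in Δpro#3 cells at day 7, a difference of -4.05 (SE 0.25, adjusted p = 2.0e-09). Fmod, with 17.1 to 17.8 FPKM in Δpro#3 cells at day 0, was under 0.3 FPKM in both groups at day 7, a difference of -3.65 (SE 0.16, adjusted p = 4.2e-11). 4930486L24Rik was at 0.368, 0.401 and 0.419 FPKM in control and 1.03, 1.07 and 1.32 FPKM in Δpro#3 cells at day 0 (log2 fold change 0.61). Its control cells reached 118, 130 and 133 FPKM at day 7 and Δpro#3 cells 16.6, 18.3 and 15.6 FPKM, a difference of -3.46 (SE 0.13, adjusted p = 6.0e-12).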

How the results depend on the processing

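Median-ratio scaling (102 genes higher and 160 lower), no filter, no variance trend and a fit of only the 2 groups moved the day-0 counts of called genes by at most 2, and the number that differed between days was 299 with median-ratio scaling and 294 with no filter. With a pseudocount of 0.1 the counts were 278 higher and 275 lower, and 586 genes differed between days. With limma-voom on fragments they were 334 and 287, and 674. All 104 and 160 genes remained called in both, and the share of calls that were higher was 50.3% and 53.8% in place of 39.4%. A minimum of 5 FPKM gave 72 higher and 93 lower, and 202 between days, from fewer genes tested, and a 1.5-fold threshold 879 and 815. Leaving out each sample gave 97 to 111 higher, 157 to 168 lower and 286 to 303 between days. Timp1 (log2 fold change -0.01, adjusted p = 0.84) ranged from -0.048 to 0.029 as samples were left out, positive without control replicate 1 (0.029) and without Δpro#3 replicate 1 (0.0012), neither past the threshold. The samples share only their replicate numbers, and the fit with the replicate block gave 104, 160 and 293 genes, the same counts. Genes under 0.5 FPKM were not tested, and the scale of FPKM + 1 limits what can be called at low levels.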
